A study of Homo sapiens with 8 samples.

Results

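This report describes 38 genes of B-cell receptor signalling and B-cell identity in the human cell line JVM13 after induction of cyclin D1. The genes were chosen by name, with earlier results of these data known. Each was read from the probe set annotated to it alone that had the highest mean over all 8 arrays. They comprised 8 surface molecules, 15 signalling proteins and 15 transcription factors. Of the 38, 37 were measured, out of 18231 genes in all; PIK3AP1, an adaptor for phosphoinositide 3-kinase, was not analysed here.

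JVM13 is an established line of B cells that came from a patient's prolymphocytic leukaemia. The 3 groups were compared on Affymetrix expression arrays. T286A cells (n = 3) were induced to overexpress cyclin D1 with the T286A mutation, which removes a phosphorylation site used in its turnover. Wild-type cells (n = 3) were induced to overexpress unmutated cyclin D1. Empty vector cells (titled control, n = 2) overexpressed neither. All 3 groups received 0.1 µg/mL doxycycline, so the inducer was shared by constructs and controls. The labels do not say how long induction lasted, whether a population was 1 clone or a pool, or whether replicates were separate cultures, so the p-values reflect only how much these samples vary, and that variation may be technical.

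The B-cell receptor is a membrane immunoglobulin paired with the signalling chains CD79A and CD79B. Antigen binding lets SRC-family kinases and SYK phosphorylate these chains, and the signal then passes through BLNK, BTK and PLCG2 to calcium, protein kinase C and, through BCL10 and MALT1, to NF-kappa-B. CD22 and CD72 recruit phosphatases that restrain it, and PAX5, EBF1, TCF3 and the PU.1 and OCT2 factors keep the B-cell programme switched on.

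Values are log2 signals after robust multi-array averaging (RMA), which gives all arrays nearly the same distribution, so every difference is relative to the other genes. Array medians lay between 5.50 and 5.64. Wild-type replicate 2 stood somewhat apart, with a correlation of at most 0.996 with its own group, against 0.997 between the other wild-type arrays, and a limma array weight of 0.513. CCND1, the cyclin D1 gene, separated both constructs from empty vector. It averaged 11.02 ± 0.20 in T286A cells (SD, n = 3), 11.06 ± 0.075 in wild-type cells (n = 3) and 5.12 ± 0.19 in empty vector cells (n = 2). T286A minus wild type was -0.04 (limma adjusted p = 0.902), so the gene does not check those labels against each other. This is the brightest of its 4 probe sets; the other 3 were dim and differed from empty vector by 0.04, -0.09 and -0.07 in T286A cells. Of the B-cell markers, MS4A1 (CD20) gave signals from 13.21 to 13.43, CD79A from 11.61 to 11.84 and EBF1 from 9.85 to 10.23, all above the median of all genes, 5.94. By contrast, the T-cell receptor chains CD3D, CD3E and CD3G stayed between 3.99 and 5.00 and the myeloid genes CD14, LYZ and CSF1R between 4.01 and 4.92. All 12 measured plasma cell genes also lay above the median of all genes. Among them PRDM1, SDC1 and XBP1 averaged 9.53, 10.21 and 11.73. The T and NK cell markers LCK, ZAP70 and CD7 were above it as well, with means of 7.76, 7.89 and 6.12.

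Most members differed little between the groups. Tests were run in limma on all genes at once, and calls were made where the p, adjusted by Benjamini-Hochberg, was under 0.05. In wild-type against empty vector cells 1 of 37 members was called, CD22, which was lower; across all genes 1.74% were called, 1.14% lower and 0.603% higher. In T286A against empty vector limma called 0 of 37 members, where 0.532% of all genes were called, 0.34% higher and 0.192% lower. At an unadjusted p under 0.05 there were 5 members (13.5%), beside 12.1% of all genes. The count of called members was also 0 of 37 for T286A against wild type, beside 0.987% of all genes, 0.598% higher and 0.389% lower. There 6 members (16.2%) had an unadjusted p under 0.05, beside 13.6% of all genes. Centring on housekeeping genes turned the all-gene split for T286A against empty vector from 62 higher and 35 lower into 30 higher and 37 lower. Other settings of the fit gave 0 to 4 called members for wild type against empty vector, 0 to 2 for T286A against empty vector and 0 to 3 for T286A against wild type. Both comparisons with empty vector use the same 2 control arrays.

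The intervals show how much change in signal the arrays left room for. Of the 37 members, 10 had dim probe sets below the median of all genes. A difference would be compressed there by background, so a narrow interval does not bound a real change in them. The median difference of the 37 members was -0.05 in T286A against empty vector, -0.05 in wild type against empty vector and 0.05 in T286A against wild type, each beside a median of 0.00 over all genes (log2 scale). The median SE of a member was 0.089 in either comparison with empty vector. An unadjusted 95% interval lay wholly within 1.5-fold either way, which is 0.585 on the log2 scale, for 37 of 37 members in T286A against empty vector, 34 of 37 in wild type against empty vector and 35 of 37 in T286A against wild type. The exceptions were CD22, SPIB and POU2F2 in wild-type against empty vector cells, and SPIB and POU2F2 between the constructs. Over all genes 91%, 88.7% and 92.8% of the intervals lay within that range in the same order.

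**Figure D1:**
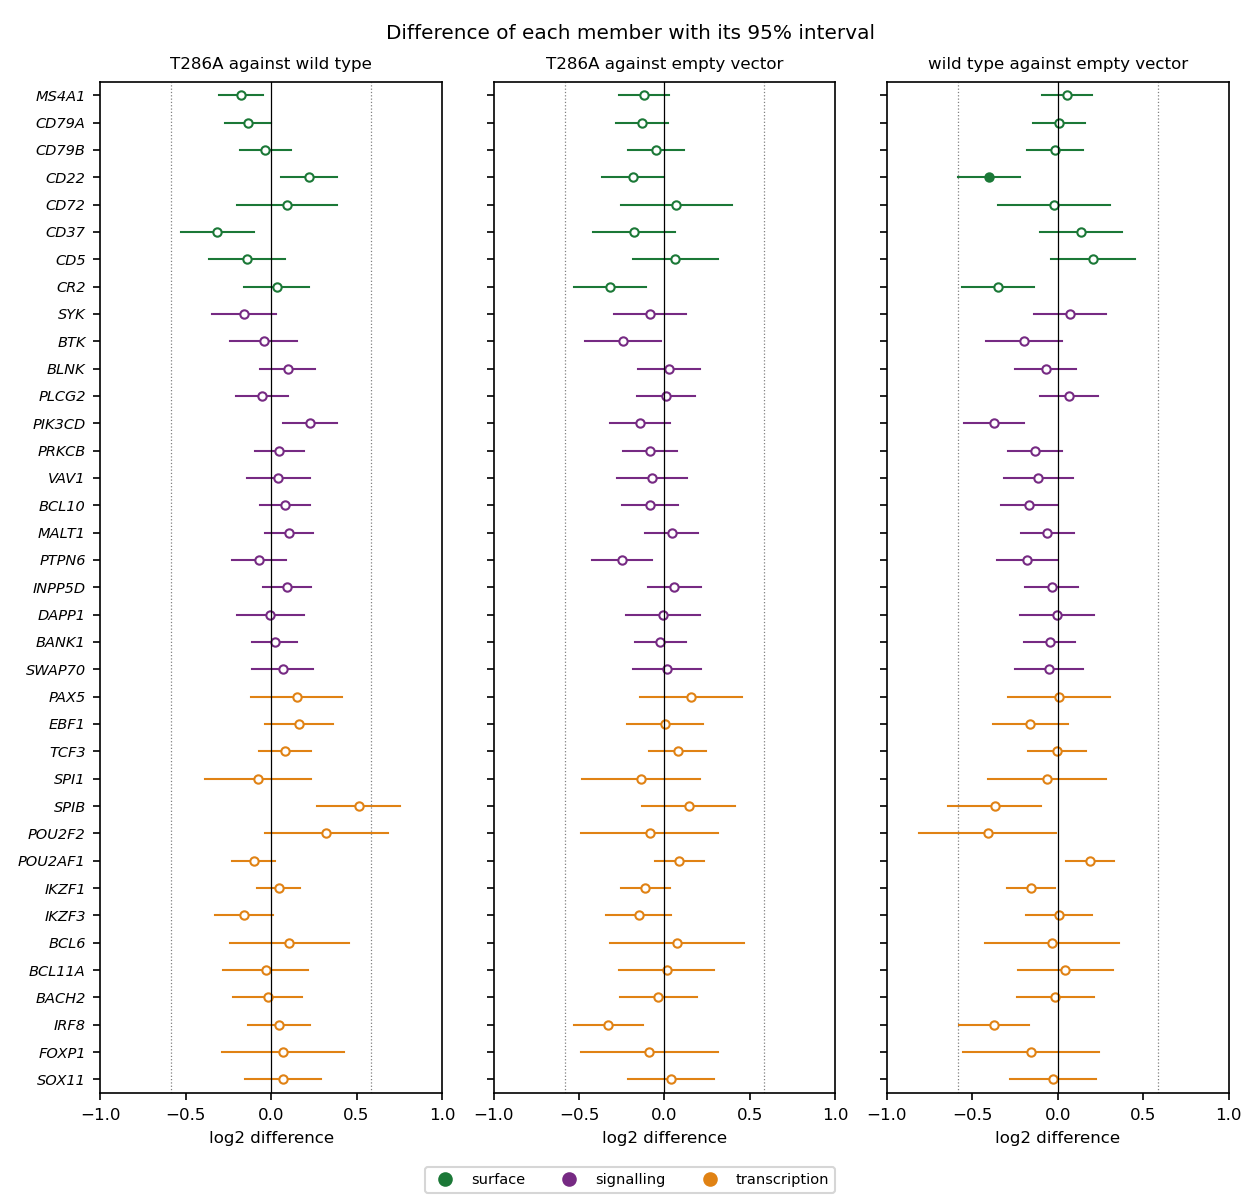
Difference of each of the 37 measured members on the log2 scale (x axis), with its unadjusted 95% interval, in the 3 comparisons; colours mark the roles, filled points adjusted p under 0.05 and dotted lines 1.5-fold. CD22 in wild type against empty vector is the single filled point, at -0.40.

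At the looser rule of an unadjusted p under 0.05 the wild-type construct had more lower than higher members. There 9 of 37 members were lower and 1 was higher in wild-type than in empty vector cells (24.3% and 2.7%), beside 7.42% and 6.08% of all genes. The split was 4 lower and 2 higher without empty vector replicate 1, and 5 lower and 1 higher without T286A replicate 3. In T286A against empty vector 5 members were lower and 0 higher, beside 6.15% and 5.95% of all genes. Between the constructs 3 members were higher and 3 lower in T286A cells, beside 7.16% and 6.46%. By the plain order of the arrays, 10 of 37 members had every T286A array below both empty vector arrays and 2 had every one above, where 16.7% and 15.2% of all genes did (31.9% in all). For wild type these were 11 and 1 of 37, where 15.3% and 15.2% of all genes did (30.5% in all). Every T286A array was above every wild-type array for 3 members and below for 6, where 9.94% and 9.82% of all genes were (19.8% in all). The mean log2 signal over the 37 members was 8.64 to 8.68 on the T286A arrays, 8.62 to 8.63 on the wild-type arrays and 8.71 to 8.72 on the empty vector arrays. The lower members included positive and negative regulators of the receptor as well as transcription factors, and are described by role. Members called or named at the looser rule are given on every array; apart from CD22 and the brightest and dimmest of each role, these were picked after their values were seen.

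Upstream sequences are shown for 4 members on which the account turns: CD22 as the called gene, POU2F2 and SPIB as transcription factors with lower signals in wild-type cells, and PRKCB as the measured member with an octamer, the motif read by the POU2F2 protein OCT2. Each is the 250 bases before the gene's start in RefSeq (GRCh38.p14), written 5′ to 3′ on the gene's strand.
CD22, chr19:35328937-35329186, plus strand: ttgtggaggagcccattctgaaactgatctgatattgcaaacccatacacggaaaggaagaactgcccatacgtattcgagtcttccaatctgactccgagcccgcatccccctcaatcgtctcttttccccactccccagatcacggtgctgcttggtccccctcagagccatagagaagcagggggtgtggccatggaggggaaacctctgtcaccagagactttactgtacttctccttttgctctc
POU2F2, chr19:42132447-42132696, minus strand: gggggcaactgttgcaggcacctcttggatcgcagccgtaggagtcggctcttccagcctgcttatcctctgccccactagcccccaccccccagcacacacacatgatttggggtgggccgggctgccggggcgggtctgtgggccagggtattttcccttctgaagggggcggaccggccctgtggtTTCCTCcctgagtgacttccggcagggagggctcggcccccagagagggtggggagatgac
SPIB, chr19:50418688-50418937, plus strand: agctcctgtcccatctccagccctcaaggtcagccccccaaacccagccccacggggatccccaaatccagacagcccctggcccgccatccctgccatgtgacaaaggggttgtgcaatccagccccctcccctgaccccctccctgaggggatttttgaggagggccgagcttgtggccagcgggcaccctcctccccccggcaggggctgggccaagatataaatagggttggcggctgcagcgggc
PRKCB, chr16:23835733-23835982, plus strand: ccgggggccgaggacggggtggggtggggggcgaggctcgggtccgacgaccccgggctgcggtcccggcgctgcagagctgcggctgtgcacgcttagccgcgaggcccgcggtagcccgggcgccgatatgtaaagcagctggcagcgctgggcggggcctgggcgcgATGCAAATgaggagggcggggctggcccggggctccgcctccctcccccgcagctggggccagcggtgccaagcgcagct
Capitals mark matches, on either strand, to the octamer ATTTGCAT, the PU box GAGGAA bound by PU.1 and SPI-B, the E-box CAGGTG bound by TCF3, the EBF1 motif (TCCC and GGGA with 2 bases between) and the E2F motif TTTCCCGC; the 5 motifs are not contained in one another. POU2F2 held 1 PU box, beginning 61 bases before its start, and PRKCB held 1 octamer, beginning 80 bases before its start. The CD22 and SPIB windows held none of the 5, which says only that these letters are absent there.

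The table of starts held 29 of the 37 measured members, with 49 starts between them, some of which overlap. A PU box was present in 17 of these 49 windows (34.7%), against 23.6% of all 35116 windows of the same length. The E-box was present in 12 (24.5% against 17.5%), and the octamer in 1 (2.04% against 1.63%). The EBF1 motif was found in 1, upstream of PTPN6 (2.04% against 1.06%), and the E2F motif in 0, against 1.39% of all windows.

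Among surface genes, the inhibitory co-receptor gene CD22 was lowest with wild-type cyclin D1. Its brightest probe set signalled at 9.56, 9.73 and 9.70 on the T286A arrays, 9.36, 9.47 and 9.51 on the wild-type arrays, and 9.87 and 9.83 on the empty vector arrays. The 3 groups did not overlap, with T286A between the others. Wild type fell by 0.40 ± 0.080 (log2 difference ± SE) against empty vector, which is 1.32-fold, at an adjusted p of 0.0498 and with a 95% interval of -0.59 to -0.22. T286A differed from empty vector by -0.18 ± 0.080 (limma adjusted p = 0.409) and from wild type by 0.22 ± 0.071 (limma adjusted p = 0.238). The wild-type call sits at the threshold: without any single array the difference stayed between -0.43 and -0.36, but the adjusted p was 0.0607 to 0.251.

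A second, dimmer CD22 probe set showed the same order. It gave 7.85, 7.80 and 7.69 in T286A cells, 7.50, 7.04 and 7.33 in wild-type cells, and 7.99 and 8.05 in empty vector cells. Its difference in wild type was -0.73 (adjusted p = 0.0446 in a limma fit over all 45220 single-gene probe sets). With both probe sets averaged, CD22 fell by 0.57 ± 0.070 in wild type against empty vector (limma adjusted p = 0.00555) and was 0.35 ± 0.063 higher in T286A than in wild-type cells (limma adjusted p = 0.0359). Leaving out each array in turn, the averaged difference from empty vector was called in 6 of 8 fits, the exceptions being those without either empty vector array, where the largest adjusted p was 0.073, and the difference between the constructs in 0 of 8, with adjusted p from 0.0583 to 0.133.

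CR2, the complement receptor CD21 that lowers the threshold for receptor signalling, was a dim probe set below the median of all genes (5.94). It gave 5.35, 5.34 and 5.40 in T286A cells, 5.50, 5.29 and 5.20 in wild-type cells, and 5.69 and 5.68 in empty vector cells. Both constructs lay below the controls on every array, by -0.32 ± 0.092 for T286A (limma adjusted p = 0.191) and -0.35 ± 0.092 for wild type (limma adjusted p = 0.125), and neither was called. The other CR2 probe set, dimmer still, gave 0.09 and -0.10, so the lower signal was not seen there in T286A cells.

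MS4A1 and CD79A had small negative differences between the constructs, neither of them called. MS4A1, the CD20 antigen, gave 13.24, 13.21 and 13.25 in T286A cells, 13.38, 13.42 and 13.43 in wild-type cells, and 13.40 and 13.31 in empty vector cells. CD79A gave 11.61, 11.68 and 11.67 in T286A cells, 11.84, 11.74 and 11.79 in wild-type cells, and 11.80 and 11.77 in empty vector cells. All T286A arrays of either gene were below all others, and all 3 probe sets of each had T286A below wild type and below empty vector. T286A minus wild type was -0.18 ± 0.057 for MS4A1 and -0.14 ± 0.059 for CD79A (limma adjusted p = 0.239 and 0.361). The partner chain CD79B ranged from 10.32 to 10.46 with overlapping groups, and 2 of its 3 probe sets were above 0 in T286A against wild type.

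CD37, a tetraspanin of mature B cells, gave 8.69, 8.58 and 8.82 in T286A cells, 8.96, 8.93 and 9.16 in wild-type cells, and 8.80 and 8.96 in empty vector cells. On this probe set only the constructs were separated, by -0.32 ± 0.093 for T286A minus wild type (limma adjusted p = 0.201). The 3 other CD37 probe sets had differences of -0.06 to -0.13 between the constructs. A second probe set gave 8.79, 8.71 and 8.78 in T286A cells, 8.87, 8.81 and 8.90 in wild-type cells, and 9.06 and 8.94 in empty vector cells. There every construct array was below both controls. In wild type against empty vector 2 of the 4 probe sets were below 0 and 2 above. CD72 and CD5 were dim: CD72 gave 4.37, 3.81 and 4.17 in T286A cells, 3.98, 4.02 and 4.08 in wild-type cells, and 4.01 and 4.09 in empty vector cells. At such signals a difference would be compressed by background, and the CD72 arrays overlapped throughout. CD5, an inhibitory surface molecule, ranged from 5.08 to 5.58 over the 8 arrays.

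**Figure D2:**
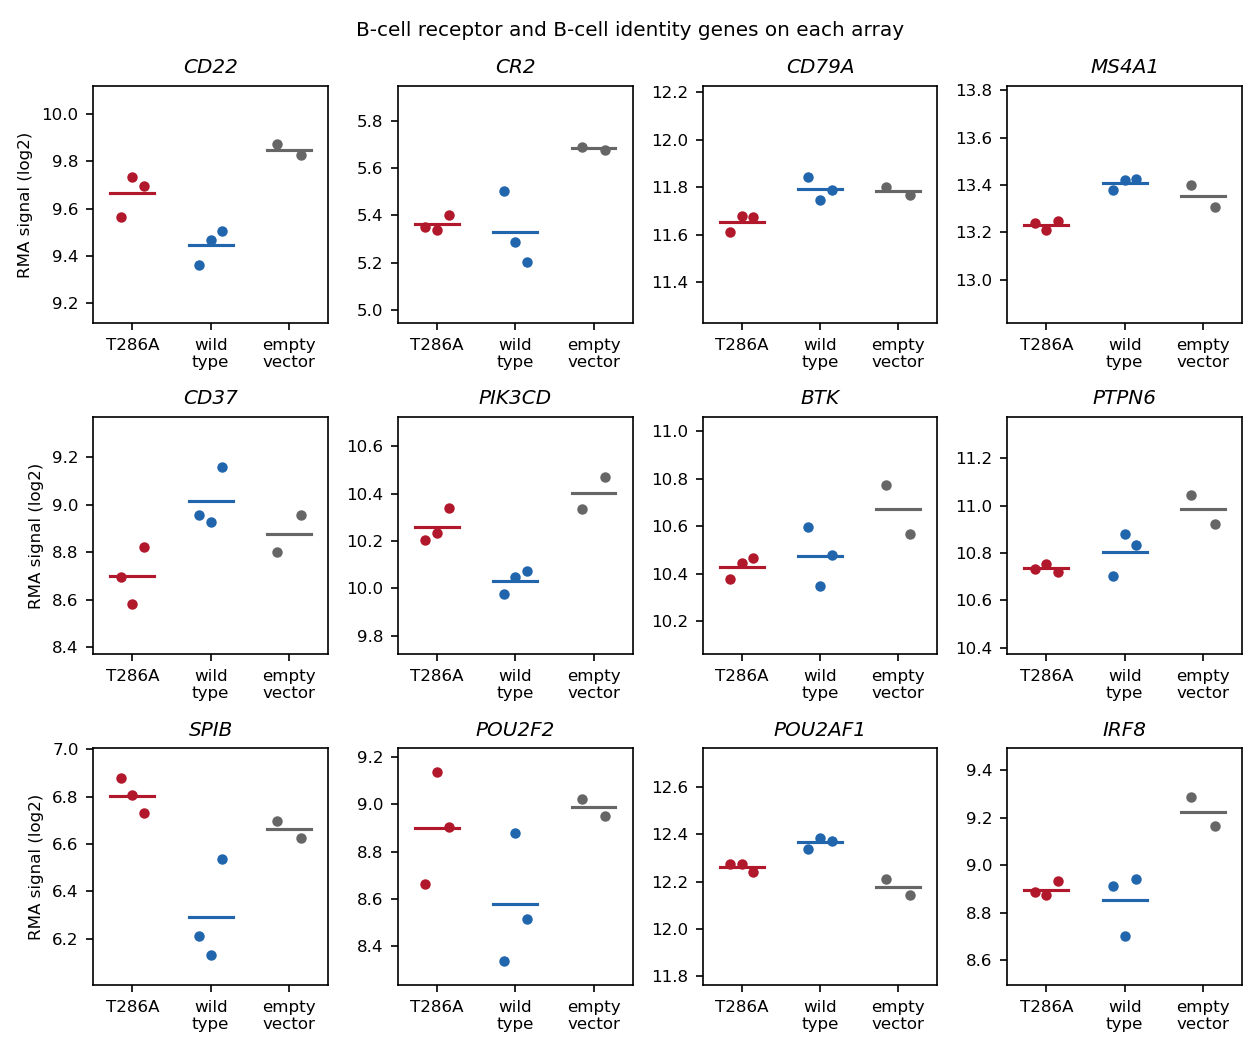
RMA signal (log2, y axis) of 12 members on each array in T286A, wild-type and empty vector cells; points are arrays and lines are group means, and the y axes cover different ranges. CD22 and PIK3CD are lowest on the wild-type arrays, IRF8 and CR2 are lower with either construct, and SPIB lies above the controls with T286A and below them with wild type.

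Among the 14 measured signalling genes, 0 were called in any of the 3 limma comparisons, and 9 of 14 had a negative difference in T286A against empty vector (median -0.05) and 12 of 14 in wild type against empty vector (median -0.07), where 9281 and 9024 of all 18231 genes did. PIK3CD, the catalytic p110-delta subunit that makes the lipid signal downstream of the receptor, came closest to the threshold. It gave 10.20, 10.23 and 10.34 in T286A cells, 9.98, 10.05 and 10.07 in wild-type cells, and 10.33 and 10.47 in empty vector cells. The wild-type arrays lay below all others, and T286A overlapped the controls narrowly. Wild type differed from empty vector by -0.37 ± 0.077 (limma adjusted p = 0.0589), with all 4 probe sets lower, from -0.43 to -0.18, and T286A differed from wild type by 0.23 ± 0.069 (limma adjusted p = 0.209).

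PTPN6 encodes SHP-1, the phosphatase that CD22 and CD72 recruit. It gave 10.73, 10.76 and 10.72 in T286A cells, 10.70, 10.88 and 10.84 in wild-type cells, and 11.05 and 10.92 in empty vector cells. Every construct array was below both controls. The differences from empty vector were -0.25 ± 0.077 for T286A and -0.18 ± 0.077 for wild type (limma adjusted p = 0.227 and 0.364), and all 3 probe sets were lower in both. BTK, the kinase that activates PLCG2, gave 10.38, 10.45 and 10.46 in T286A cells, 10.60, 10.35 and 10.48 in wild-type cells, and 10.78 and 10.57 in empty vector cells. On this probe set its T286A arrays were below the controls while wild type overlapped them, with differences of -0.24 ± 0.096 and -0.20 ± 0.096 (limma adjusted p = 0.359 and 0.433). On the dimmer BTK probe set every array of either construct was below both controls. The differences there were -0.25 for T286A and -0.21 for wild type (adjusted p = 0.281 and 0.343 in a limma fit over all single-gene probe sets).

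BCL10, which bridges the receptor to NF-kappa-B, gave 9.42, 9.35 and 9.44 in T286A cells, 9.41, 9.27 and 9.28 in wild-type cells, and 9.48 and 9.50 in empty vector cells. The construct arrays were all below the controls, but the difference in wild type was only -0.17 ± 0.071 (limma adjusted p = 0.361), and the 2 dimmer probe sets gave -0.01 and 0.08. PRKCB, protein kinase C beta, had the brightest probe set among the signalling genes and gave 11.79, 11.95 and 11.85 in T286A cells, 11.79, 11.82 and 11.83 in wild-type cells, and 11.95 and 11.95 in empty vector cells. Wild type lay just below the controls on this probe set, by -0.13 ± 0.069 (limma adjusted p = 0.468). All 3 PRKCB probe sets were lower in wild type, from -0.38 to -0.13, and averaged they differed by -0.25 (limma adjusted p = 0.246). BANK1, a B-cell scaffold, was the dimmest of the signalling genes. It gave 4.08, 4.05 and 4.06 in T286A cells, 4.01, 4.06 and 4.04 in wild-type cells, and 4.03 and 4.14 in empty vector cells. Its groups overlapped.

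The relay proteins differed little on their brightest probe sets. SYK, BLNK, PLCG2, VAV1, MALT1, INPP5D, DAPP1 and SWAP70 had differences between -0.11 and 0.07 in wild type against empty vector, and none of their 95% intervals reached 1.5-fold in any comparison. PLCG2, the phospholipase that releases calcium, ranged from 10.96 to 11.14 over the 8 arrays. The adaptor BLNK ranged from 11.29 to 11.54 and the lipid phosphatase INPP5D from 10.00 to 10.20. Every T286A array of SYK was below every wild-type array, with a difference of -0.16 (limma adjusted p = 0.451). Other probe sets spread more widely, though none of these was called. The 4 of DAPP1 ran from -0.06 to 0.39 in wild type against empty vector. The 4 of INPP5D ran from -0.18 to 0.38 in T286A against wild type.

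On the brightest probe sets, the widest difference in each comparison belonged to a transcription factor gene. The median absolute difference, however, was larger among surface genes than among transcription factor genes in all 3 comparisons. With probe sets averaged, the widest difference of any member was that of CD22, at -0.57 in wild type against empty vector. SPIB encodes SPI-B, a PU.1 relative that cooperates with the OCT factors in mature B cells. It gave 6.88, 6.81 and 6.73 in T286A cells, 6.21, 6.13 and 6.53 in wild-type cells, and 6.70 and 6.63 in empty vector cells. Every T286A array was above both controls and every wild-type array below them. T286A minus wild type was 0.51 ± 0.11, the largest difference of any member's brightest probe set in the 3 comparisons, with a 95% interval of 0.27 to 0.75 and a limma adjusted p of 0.0807. Wild type differed from empty vector by -0.37 ± 0.12 (limma adjusted p = 0.21) and T286A by 0.14 ± 0.12 (limma adjusted p = 0.718). Wild-type replicate 3 was nearest to the controls; without it the difference between the constructs was 0.63 and that of wild type from empty vector -0.49, and both were called (limma adjusted p = 0.0294 and 0.0496). SPIB had 1 probe set, so no other reading was available for comparison.

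POU2F2, the gene of OCT2, was lower in wild-type cells on each of its 7 probe sets. The brightest gave 8.66, 9.14 and 8.90 in T286A cells, 8.34, 8.88 and 8.52 in wild-type cells, and 9.02 and 8.95 in empty vector cells. Its arrays spread widely, so the difference of -0.41 ± 0.18 in wild type was not called (limma adjusted p = 0.359). Over the 7 probe sets the differences in wild type ran from -0.76 to -0.19, while T286A minus wild type ran from 0.18 to 0.54. The mean of the 7 was 7.60, 7.77 and 7.68 in T286A cells, 7.39, 7.33 and 7.34 in wild-type cells, and 7.75 and 7.84 in empty vector cells. On that measure, a setting other than the one used for the counts above, the wild-type arrays were all below the rest and POU2F2 was 0.44 ± 0.069 lower in wild type than in empty vector (limma adjusted p = 0.0154) and 0.33 ± 0.062 higher in T286A than in wild type (limma adjusted p = 0.0458). Without each array in turn the first was called in 5 of 8 fits, the exceptions being those without wild-type replicate 3 or either empty vector array (largest adjusted p = 0.174), and the second in 0 of 8 (adjusted p 0.0678 to 0.15). CD22 and POU2F2 were the members called on averaged probe sets in either comparison, where 1.4% of all genes were called lower and 0.828% higher in wild type against empty vector, and 0.762% higher and 0.4% lower in T286A against wild type. In T286A against empty vector limma called 0 of 37 members on this measure, beside 0.669% of all genes called higher and 0.373% lower. At an unadjusted p under 0.05 there were 6 members. The share of all genes at that rule was not computed on averaged probe sets, so this count has no background beside it.

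**Figure D3:**
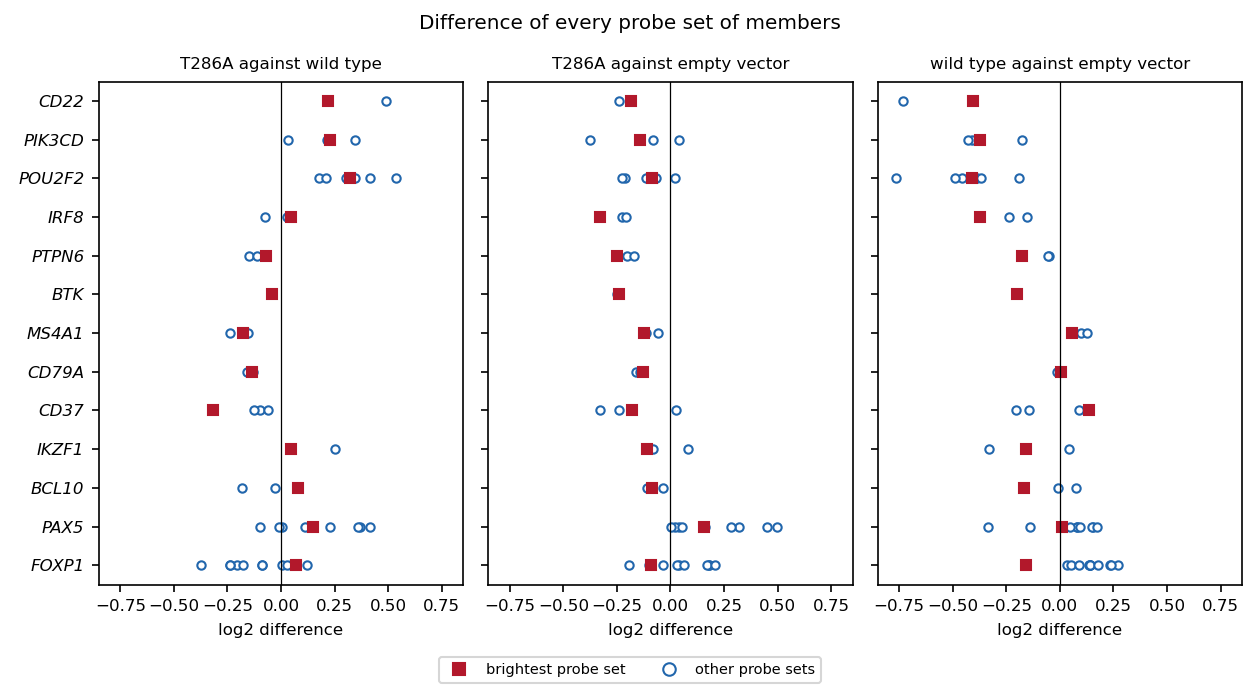
Log2 difference (x axis) of every single-gene probe set of selected members in the 3 comparisons; squares are the brightest probe set of a gene and circles the others. All 7 POU2F2 probe sets and both CD22 probe sets lie below 0 in wild type against empty vector and above 0 in T286A against wild type.

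POU2AF1, the gene of the OCT co-activator OBF-1, gave 12.28, 12.27 and 12.24 in T286A cells, 12.34, 12.39 and 12.37 in wild-type cells, and 12.21 and 12.14 in empty vector cells. The groups did not overlap, and wild type was the highest, though the difference of 0.19 ± 0.062 from empty vector was not called (limma adjusted p = 0.227). IRF8, a factor of germinal centre and other B cells, was lower with either construct, at 8.89, 8.87 and 8.93 in T286A cells, 8.91, 8.70 and 8.94 in wild-type cells, and 9.29 and 9.16 in empty vector cells. The constructs overlapped each other and lay below both controls, by -0.33 ± 0.089 for T286A and -0.37 ± 0.089 for wild type (limma adjusted p = 0.16 and 0.093). Its 3 probe sets were all lower in both, and T286A minus wild type was 0.05 with an interval of -0.14 to 0.23. IKZF1, the lymphoid regulator Ikaros, gave 10.62, 10.65 and 10.63 in T286A cells, 10.57, 10.56 and 10.63 in wild-type cells, and 10.75 and 10.74 in empty vector cells. Its constructs were again below the controls, by -0.11 ± 0.062 and -0.16 ± 0.062 (limma adjusted p = 0.537 and 0.314), while its other probe sets gave 0.08 and -0.08 for T286A and 0.04 and -0.33 for wild type.

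The founding B-lineage factors were not called in any comparison. On the brightest probe sets PAX5 ranged from 7.63 to 8.07, EBF1 from 9.85 to 10.23 and TCF3 from 10.82 to 10.99. In each the groups overlapped there in the comparisons with empty vector. On these probe sets the differences from empty vector lay between 0.00 and 0.16 in T286A cells and between -0.16 and 0.01 in wild-type cells. T286A minus wild type was 0.15 for PAX5, 0.16 for EBF1 and 0.08 for TCF3, and all 3 probe sets of EBF1 and all 4 of TCF3 were above 0. With probe sets averaged, EBF1 differed by 0.19 and TCF3 by 0.20 between the constructs (limma adjusted p = 0.232 and 0.144). Averaged EBF1 was -0.18 in wild type against empty vector (limma adjusted p = 0.316). Other probe sets spread more widely against empty vector, though none was called. Those of PAX5 ran from 0.00 to 0.50 in T286A cells and from -0.34 to 0.17 in wild-type cells. Those of TCF3 ran from -0.09 to 0.47 and from -0.36 to 0.17. IKZF3, the Ikaros relative Aiolos, differed by -0.16 ± 0.074 in T286A against wild-type cells (limma adjusted p = 0.4). SPI1 (PU.1), BCL6, BCL11A, BACH2, FOXP1 and SOX11 had dim probe sets, all below the median of all genes and between 3.98 and 5.70 on every array. SOX11, a neural factor found in mantle cell lymphoma, gave 4.18, 4.36 and 3.98 in T286A cells, 4.16, 4.08 and 4.07 in wild-type cells, and 4.20 and 4.07 in empty vector cells. These arrays overlapped, and probe sets this dim could hide a real change. FOXP1 and PAX5 had 12 and 10 probe sets, none of which was called in any comparison.

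In total 10 of 37 members, 3 of them surface, 1 signalling and 6 transcription factor genes, were dim in this sense. Counting the 27 brighter members alone, 9 had an unadjusted p under 0.05 in wild type against empty vector (33.3%), beside 17.3% of all genes at or above the median; in T286A against empty vector it was 4 (14.8% against 16.9%) and between the constructs 6 (22.2% against 16.8%). The other 19 members not given array by array spanned -0.15 to 0.16 in T286A against empty vector, -0.16 to 0.21 in wild type against empty vector and -0.16 to 0.16 between the constructs, with no adjusted p under 0.4.

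Other genes of the same programme were taken from lists. These and the lists below were, like the members, chosen with earlier results of these data known. Of 49 measured other genes of the receptor pathway, limma called 1 higher and 0 lower in wild type against empty vector, 0 in T286A against empty vector and 1 higher in T286A against wild type, CD180, which is also on the identity list. At an unadjusted p under 0.05 there were 3 higher and 1 lower in T286A against empty vector, beside 5.95% and 6.15% of all genes. In wild type against empty vector there were 3 higher and 11 lower, beside 6.08% and 7.42%. Between the constructs 9 were higher and 2 lower in T286A cells, beside 7.16% and 6.46%. The calcineurin subunit PPP3CA rose by 0.41 ± 0.073 in wild-type cells (limma adjusted p = 0.0353), a call lost without any single array. Of 29 other B-cell identity genes, 1 was called higher and 2 lower with wild type, 0 higher and 1 lower with T286A, and 3 higher and 0 lower in T286A against wild type. The median of this list was 0.01 in T286A against empty vector and -0.08 in wild type against empty vector. At an unadjusted p under 0.05 it had 5 higher and 7 lower genes with T286A, beside 5.95% and 6.15% of all genes, 2 higher and 12 lower with wild type, beside 6.08% and 7.42%, and 6 higher and 4 lower between the constructs, beside 7.16% and 6.46%.

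The largest of these involved P2RX5, an ATP-gated channel. It gave 10.92, 10.94 and 10.97 in T286A cells, 9.99, 10.19 and 10.15 in wild-type cells, and 10.93 and 10.88 in empty vector cells. T286A overlapped the controls, and wild type was lower than both, by -0.79 ± 0.078 against empty vector (limma adjusted p = 0.0035), with T286A 0.83 ± 0.070 above wild type (limma adjusted p = 0.0019). CD180, a toll-like receptor homologue of B cells, was 0.79 ± 0.13 higher in T286A than in wild-type cells (limma adjusted p = 0.0322), and VPREB3, a surrogate light chain relative, 0.51 ± 0.086 higher (limma adjusted p = 0.0385). The activation marker CD83 fell by 0.65 ± 0.10 with wild type (limma adjusted p = 0.0215), and stood at -0.53 with T286A (limma adjusted p = 0.0697). The low-affinity IgE receptor FCER2 (CD23) fell by 0.64 ± 0.091 with T286A (limma adjusted p = 0.0325), and stood at -0.42 with wild type (limma adjusted p = 0.0701). ID3, an inhibitor of E proteins such as TCF3, rose by 0.37 ± 0.066 with wild type (limma adjusted p = 0.0336). Without each array in turn, P2RX5 was called in 8 of 8 fits between the constructs and 6 of 8 for wild type, CD83 in 5 of 8, CD180, VPREB3 and FCER2 in 1 of 8 each, and ID3 in 0 of 8.

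Of 12 plasma cell genes, limma called 0 in T286A against empty vector, 1 higher in wild type against empty vector and 1 lower in T286A against wild type. At an unadjusted p under 0.05, 1 of these genes was higher and 5 were lower in T286A against empty vector, beside 5.95% and 6.15% of all genes. In wild type against empty vector 2 were higher and 0 lower, beside 6.08% and 7.42%. Their mean log2 signal over 12 genes was 10.24 to 10.32 on the T286A arrays, 10.48 to 10.50 on the wild-type arrays and 10.39 to 10.42 on the empty vector arrays, so the groups did not overlap. In T286A against wild type 9 of 12 were lower and 0 higher at an unadjusted p under 0.05, beside 6.46% and 7.16% of all genes, and the median was -0.21. Against empty vector the list's median was -0.12 with T286A and 0.09 with wild type. The immunoglobulin joining chain JCHAIN was called, at 10.75, 10.65 and 10.80 in T286A cells, 11.43, 11.34 and 11.36 in wild-type cells, and 11.14 and 11.19 in empty vector cells. It fell by 0.64 ± 0.064 in T286A against wild-type cells (limma adjusted p = 0.00445). SDC1 (CD138) rose by 0.38 ± 0.071 with wild type against empty vector (limma adjusted p = 0.0411), a call lost without any single array. The part of these differences in the members' values was not tested.

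Most markers of other lineages were dim. Of 14 T and NK cell markers 11 lay below the median of all genes, as did 10 of 11 myeloid and 9 of 10 epithelial and stromal markers. The mean signal of the T and NK list was 5.32 to 5.36 on T286A arrays, 5.31 to 5.47 on wild-type arrays and 5.38 to 5.38 on empty vector arrays, and that of the myeloid list 4.93 to 5.01, 4.93 to 4.97 and 5.01 to 5.09. The T and NK markers above the median were ZAP70, with a mean of 7.89 and a range of 7.81 to 8.03, CD7, with a mean of 6.12, and LCK. The kinase LCK, the 1 called marker of these 3 lists, gave 7.61, 7.46 and 7.56 in T286A cells, 8.06, 8.32 and 8.29 in wild-type cells, and 7.51 and 7.31 in empty vector cells. It rose by 0.81 ± 0.10 in wild type against empty vector (limma adjusted p = 0.011, called in 6 of 8 fits without 1 array) while the CD3 chains stayed at 5.00 or below.

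**Figure D4:**
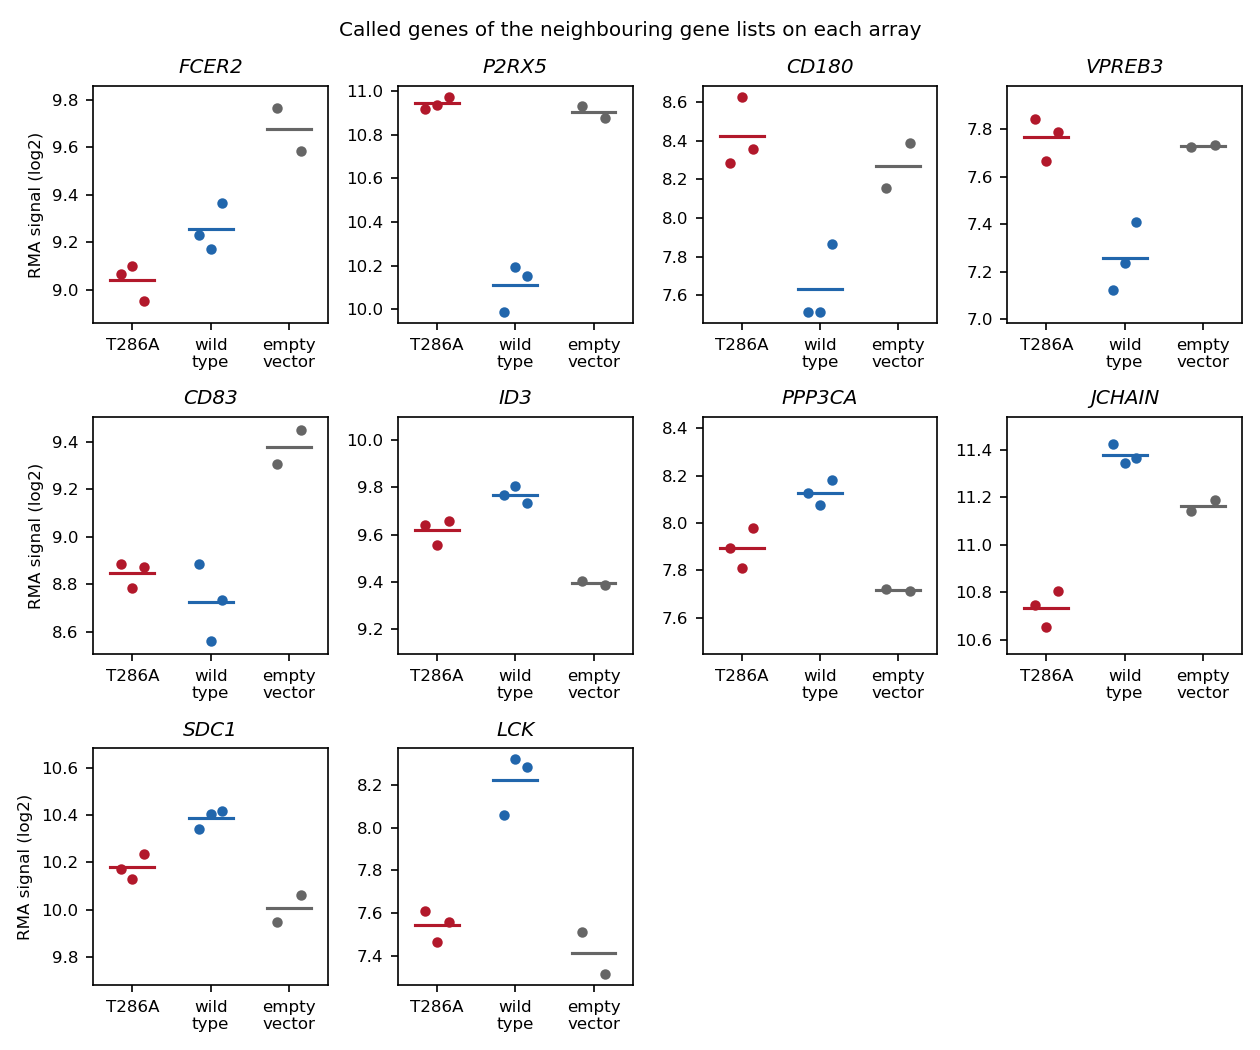
RMA signal (log2, y axis) on each array of the 10 genes of neighbouring lists that were called in at least 1 comparison; points are arrays, lines are group means, and the y axes cover different ranges. P2RX5, CD180 and VPREB3 are low on the wild-type arrays only, and JCHAIN is lowest on the T286A arrays.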

How the data were processed

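RNA from 8 JVM13 samples was hybridised to 1-colour Affymetrix arrays. The deposited values are log2 signals made by RMA; the submitters' processing notes name R 3.5.0 for the deposited log2 values; detection calls and scanner files were not used here. The table held 48864 probe sets; 10 controls were left out, and 45220 of the rest named 1 gene in the platform's annotation, 1325 several and 2309 none. The brightest probe set per gene gave 18231 genes, fitted without an intensity filter in limma 3.58.1 (R 4.3.3; 1 mean per group, 5 residual and 3.27 prior degrees of freedom, two-sided, Benjamini-Hochberg over all genes). The fit was tested on simulated data. The number of arrays limits the precision. Members, lists and their roles were chosen with earlier results of these data known. Genes named by rule were called members, the brightest and dimmest of each role and up to 6 called genes per neighbouring list. The 7 alternatives to the fit, and leaving out each array, are given at the end. Replicate numbers were not used as pairs in the main fit, as no label says that a number marks a shared culture. Deviations of same-numbered arrays from their group means correlated at -0.091 to 0.119. Differently numbered arrays were not compared in this way, so the values do not decide whether the numbers pair the arrays.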

Additional observations from a re-analysis of the deposited data

Results flagged for a closer look

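SPIB was singled out because every T286A array lay above both empty vector arrays and every wild-type array below them. T286A minus wild type was 0.51 (log2), which limma did not call (adjusted p = 0.0807).

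Genes of the neighbouring lists were singled out where T286A and wild type differed in the direct limma test. P2RX5 differed by 0.83 (T286A minus wild type, log2; adjusted p 0.00608 to 0.0174 without each array in turn), CD180 by 0.79, VPREB3 by 0.51, JCHAIN by -0.64 and LCK by -0.68. JCHAIN stood at -0.43 with T286A and 0.21 with wild type against empty vector (limma adjusted p = 0.051 and 0.23), and its difference between constructs was called without any single array (adjusted p 0.0141 to 0.0264). LCK was called in 4 of 8 such fits, and CD180 and VPREB3 in 1 of 8 each (adjusted p up to 0.113 and 0.143).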

How the results depend on the processing

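Directions of the named genes held: in no alternative did a difference with an unadjusted p under 0.05 change sign, and 27 sign changes all concerned differences with larger p on both sides. Counts of calls moved more. For wild type against empty vector the 1 called member became 2 on averaged probe sets (CD22 and POU2F2), 3 among genes at or above the median (CD22, IRF8 and PIK3CD), 2 with array weights (CD22 and PIK3CD), 4 with a trended prior (CD22, IRF8, PIK3CD and POU2AF1), and 0 with all probe sets in the fit, with housekeeping centring or with the replicate block; without each array in turn it was 0 to 1, the 1 being SPIB without wild-type replicate 3. For T286A against empty vector 0 became 2 with the trend (IRF8 and PTPN6) and stayed at 0 without each array. For T286A against wild type 0 became 2 on averaged probe sets (CD22 and POU2F2), 1 among brighter genes (SPIB) and 3 with the trend (MS4A1, PIK3CD and SPIB), and was 0 to 1 without each array.

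All-gene counts moved as well, though not always together with the member counts. The fit of brighter genes covered 9116 genes and that over all probe sets 45220 probe sets, against 18231 genes in the others. The 317 calls for wild type against empty vector became 629 when only brighter genes were fitted, 726 with the trend, 71 with the replicate block and 22 to 196 without each array. The 97 for T286A against empty vector became 190 on averaged probe sets, 55 over all probe sets, 527 among brighter genes, 317 with array weights, 618 with the trend, 3 with the replicate block and 1 to 87 without each array; housekeeping centring changed its split of 62 higher and 35 lower to 30 and 37. The 180 for T286A against wild type became 381, 579 and 86 with brighter genes, the trend and the replicate block, and 70 to 128 without each array. Members at an unadjusted p under 0.05, counts added after the data were seen, numbered 10 for wild type against empty vector (6 to 9 without each array, with 6 without empty vector replicate 1 or T286A replicate 3), 5 for T286A against empty vector (10 with the trend, 1 to 5 without each array, with 1 without empty vector replicate 1 and 3 without T286A replicate 1 or 3) and 6 for T286A against wild type (10 on averaged probe sets or with the trend, 4 to 9 without each array). Without wild-type replicate 2 these were 9, 4 and 9. Fewer arrays leave fewer degrees of freedom; otherwise the cause was not tested.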
